A study of Mus musculus with 14 samples.

Results

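The miR-29 family was followed through small RNA libraries of C57BL/6J mouse small intestine sorted by a Sox9-eGFP reporter. The deposited table lists 2030 miRNA entries, 534 at an annotated start and 1496 with a shift suffix. The family was taken as every entry without a shift suffix that is named miR-29a, miR-29b or miR-29c, which gave 8 entries. The groups were 3 libraries each of Negative, Sublow, Low and High cells, named for their level of green fluorescence, and 2 libraries of Non-sorted cells. All groups are small intestinal material from mice of the same strain, and the titles give every group the Sox9-eGFP label. The labels state neither animal age nor whether the libraries of a group came from separate animals, and the spread behind each p-value may therefore be technical. Values are reads per 1000000 miRNA reads (RPM), so that every library sums to the same total.

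A miRNA is cut from a hairpin RNA and guides Argonaute proteins to matching messenger RNAs, mainly through its seed, the stretch from base 2 to base 8. The mature RNAs from the 3p arms of the miR-29 hairpins share a seed and are known repressors of collagen and other matrix genes and of DNA methyltransferase genes Dnmt3a and Dnmt3b. The 5p arms are usually the discarded strands. In the Sox9-eGFP mouse, crypt stem cells have been found among Low cells, dividing progenitors among Sublow cells, endocrine cells among High cells, and differentiated cells without the reporter among Negative cells.

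The mature sequences show why the 3 names form one family and how they can still be told apart in sequencing. They are given 5′ to 3′ from RefSeq, in which all 8 entries were matched by name, with the seed in capitals.
miR-29a-3p: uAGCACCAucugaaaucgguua
miR-29b-3p: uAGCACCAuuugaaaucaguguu
miR-29c-3p: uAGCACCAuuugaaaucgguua

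The seed AGCACCA is carried by 3 of the 1679 mouse mature names in that table, and these are the 3 above. Counted from the 5′ end, miR-29a-3p and miR-29c-3p differ by one substitution, C10U, outside the seed. The miR-29b-3p RNA differs from miR-29c-3p by G18A, U21G and A22U, and is 1 base longer at 23 bases. How reads of such near-identical members were assigned was not stated in the labels.

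The most abundant 5p arms come from the miR-29b hairpins, and their seeds are offset from each other by 1 base.
miR-29b-1-5p: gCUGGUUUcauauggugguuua
miR-29b-2-5p: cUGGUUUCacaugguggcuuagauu

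The family lies in 2 clusters of 2 hairpins each. On build GRCm38.p6, Mir29b-1 (chr6:31063023-31063093) and Mir29a (chr6:31062660-31062747) lie on the minus strand, with 275 bases and no annotated gene between them. Mir29b-2 (chr1:195037040-195037120) and Mir29c (chr1:195037547-195037634) lie on the plus strand, 426 bases apart. Both of these sit in an exon of the non-coding gene A330023F24Rik and opposite an exon of the protein-coding gene Cd46, which is on the minus strand. miR-29b-3p has the same sequence in both clusters. Its 2 entries had identical values in all 14 libraries and are treated below as 1 measurement.

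Depth was estimated at 1.89 to 16.4 M reads per library. On the second principal axis the libraries split by whether they list miR-295-3p, a miRNA of pluripotent cells, which 7 of 14 do: 2 Negative, 1 Sublow, 1 Low, 1 High and both Non-sorted libraries.

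miR-29a-3p was the main member everywhere, and its deposited level was highest in Low cells. It was 129.5, 130.2 and 173.9 RPM in Negative libraries, 181.9 ± 31.1 RPM (SD, n = 3) in Sublow libraries, of which the lower pair were at 151.99 and 179.6 RPM, 260.6, 246.6 and 315.2 RPM in Low libraries, 166.9, 163.0 and 156.0 RPM in High libraries, and 153.7 and 173.1 RPM in Non-sorted libraries. Every Low library lay above every library of the other groups, whereas Negative, Sublow, High and Non-sorted overlapped. How common such separation is among all entries was not counted, here or for the members below. By mean, the order was Low, Sublow, Non-sorted, High and Negative, and the last 4 in this order were not separated by their spread. The values rested on an estimated median of 871 reads per library.

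miR-29c-3p, which differs from miR-29a-3p by that one base, did not share its peak in Low cells. It was 22.9, 17.7 and 31.4 RPM in Negative, 21.2, 20.6 and 15.5 RPM in Sublow, 24.6, 14 and 15.6 RPM in Low, 25.0, 38.0 and 24.9 RPM in High, and 19.8 and 26.1 RPM in Non-sorted libraries. The High libraries all lay above the Sublow and Low libraries, and all other pairs of groups overlapped. Its estimated depth was lower, with 47 to 502 reads per library.

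miR-29b-1-5p, the 5p arm of the hairpin next to Mir29a, was the third most abundant member. It was 7.43, 4.88 and 7.31 RPM in Negative, 13.7, 10.4 and 15.1 RPM in Sublow, 19.9, 27.0 and 10.6 RPM in Low, 10.3, 16.0 and 8.99 RPM in High, and 5.77 and 3.63 RPM in Non-sorted libraries. Negative libraries lay below all Sublow, Low and High libraries, and the last 3 of these overlapped one another.

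The remaining members were low, and each was listed at 0 in some libraries. The smallest listed value of a library came out at 9.99 to 10.9 estimated reads. The estimate searched only a narrow range around such a value, so a cutoff of this size was assumed and not tested. On that assumption 0 means fewer reads than that. In single libraries miR-29b-3p reached an estimated 49 reads and miR-29b-2-5p 107 reads. miR-29b-3p was 2.25, 2.85 and 2.71 RPM in Negative, 2.03, 3.31 and 1.52 RPM in Sublow, 4.63, 3.84 and 6.29 RPM in Low, and 3.09 and 5.16 RPM in Non-sorted libraries. In High cells it was 3.13 RPM in 1 library and listed at 0 in the other 2. At its annotated start, miR-29b-2-5p, the 5p arm of the hairpin next to Mir29c, ranged over 0 to 13.9 RPM. It was listed at 0 in 3 libraries, 1 each of Sublow, Low and High. Its row with shift suffix −1 was 3.72, 10.17 and 15.75 RPM in Negative, 2.69, 3.53 and 1.53 RPM in Sublow, and 0, 0 and 3.61 RPM in Low libraries. That row was 0 in all High libraries, and 5.98 and 8.03 RPM in Non-sorted libraries. By mean it was above the annotated start in Negative (9.88 against 4.78 RPM) and Non-sorted libraries, and below it in the other groups. miR-29a-5p was above 0 in 2 libraries, at 0.73 RPM in 1 Sublow and 1.61 RPM in 1 High library. miR-29c-5p was above 0 in 1 Sublow library, at 0.67 RPM.

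**Figure D1:**
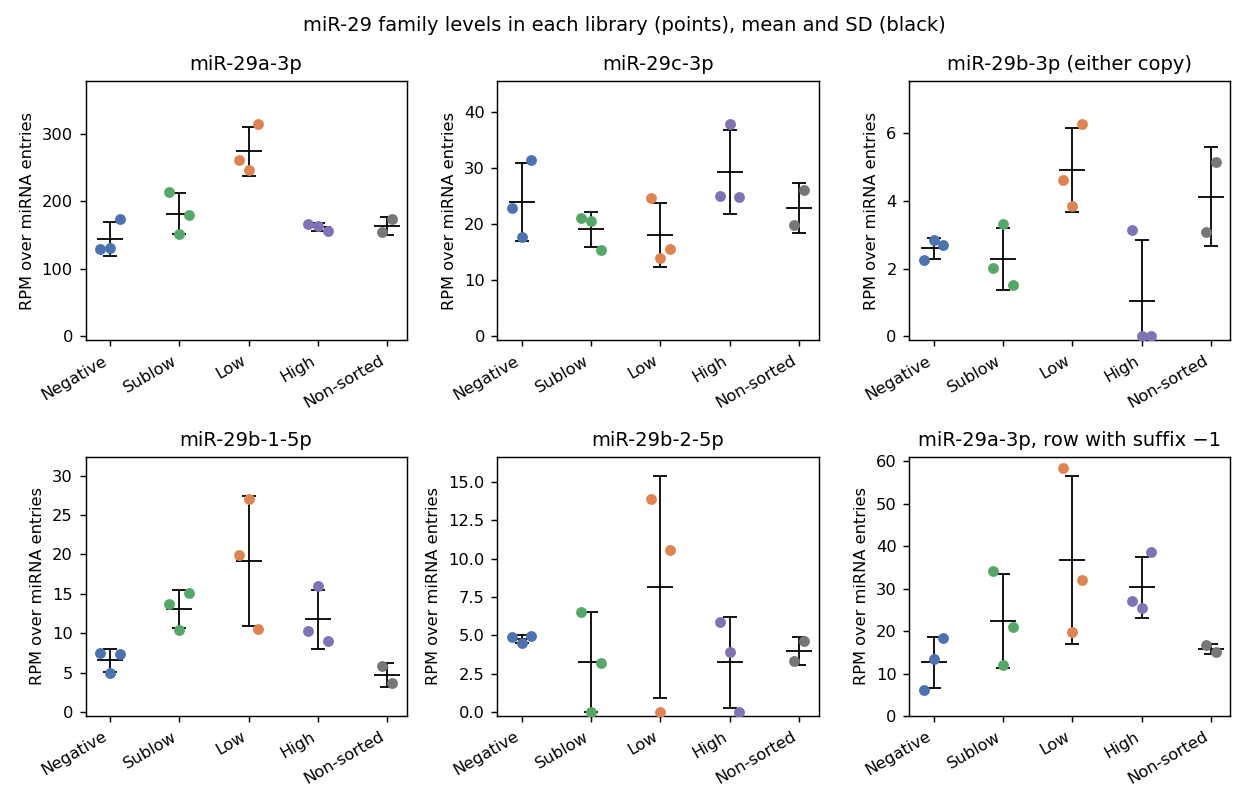
Deposited levels in RPM (vertical axes, linear, a scale of its own in each panel) of the 5 most abundant members and of one shifted form of miR-29a-3p; points are libraries, black bars the mean and SD of each group. miR-29a-3p is highest in the 3 Low libraries, at 246.6 to 315.2 RPM, while miR-29c-3p is highest in a High library, at 38.0 RPM.

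The hairpin of miR-29b-1 was thus represented more by its 5p arm than by its 3p arm. miR-29b-1-5p was above miR-29b-3p in 13 of 14 libraries, although the 3p value may hold reads of both miR-29b hairpins. The ratio of the 5p to the 3p value was 0.70 to 9.92, with a median of 3.21, in the 12 libraries where miR-29b-3p was above 0. Differences in how well each RNA was captured in library preparation also enter this ratio. The Mir29a and Mir29c hairpins were represented by their 3p arms, which were listed in all 14 libraries, while miR-29a-5p and miR-29c-5p were at or near 0.

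Summed over the family, with miR-29b-3p counted once, the level was 182.5 ± 32.9 RPM in Negative, 220.0 ± 36.6 RPM in Sublow, 324.4 ± 33.4 RPM in Low, 207.8 ± 16.1 RPM in High (SD, n = 3 each) and 199.1 ± 19.0 RPM in Non-sorted cells (SD, n = 2). miR-29a-3p made up 73.8 to 88.0% of this sum. The share of miR-29c-3p was 13.004 ± 1.71% in Negative, 8.80 ± 1.99% in Sublow, 5.58 ± 1.76% in Low, 14.01 ± 2.83% in High (SD, n = 3 each) and 11.5 ± 1.14% in Non-sorted cells (SD, n = 2). The Low libraries, at 4.35 to 7.60%, lay below all Negative and High libraries and overlapped with Sublow libraries, at 7.20 to 11.0%.

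The balance of the 2 main members was tested as the ratio of miR-29a-3p to miR-29c-3p within a library, a quantity that any scaling of the library leaves nearly untouched. The ratio was 5.66, 7.36 and 5.54 in Negative libraries, 10.1, 7.40 and 11.6 in Sublow libraries, 10.6, 17.6 and 20.2 in Low libraries, 6.68, 4.29 and 6.28 in High libraries, and 7.77 and 6.64 in Non-sorted libraries. All Low and Sublow libraries were above all Negative and High libraries. Low and Sublow overlapped, as did High and Negative. The log2 ratio (1 RPM added to each value) differed among the 4 sorted populations in an exact permutation test over the 12 sorted libraries (p = 0.00331, and 0.00662 after Benjamini-Hochberg adjustment over the 2 ratios tested). The smallest p these arrangements can give is 6.49e-05.

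Pair by pair, the log2 ratio was lower in High than in Low by a difference of −1.43 (SE 0.33) and lower in Negative than in Low by −1.32 (SE 0.30), with no overlap in either pair. It differed by −0.73 (SE 0.27) between High and Sublow and by −0.62 (SE 0.22) between Negative and Sublow, again with no overlap. With 3 libraries against 3, each of these 4 pairs reached p = 0.1 in an exact two-sided permutation test, the smallest that the design allows, and 0.15 after adjustment over the 6 pairs. Between Sublow and Low the difference was −0.70 (SE 0.33, exact p = 0.2), and between High and Negative it was −0.11 (SE 0.23, exact p = 0.8), with overlapping libraries in both pairs. The lane code in the column names was confounded with population in part. Names with code L000 also carry the word Combo, and the labels do not state that these libraries shared a lane. Under code L000 the mean ratio was 5.49 in 2 High libraries against 18.9 in 2 Low libraries. On lane L005 it was 5.54 in 1 Negative library, 10.9 in 2 Sublow libraries and 10.6 in 1 Low library. On lane L006 it was 6.51 in 2 Negative libraries, 7.40 in 1 Sublow library and 7.20 in 2 Non-sorted libraries. With the miR-295-3p split as a term, the ratio differed among the sorted populations as well (permutation test within the split, p = 0.00619). In the libraries that list no miR-295-3p the mean ratio was 5.54 in 1 Negative, 10.9 in 2 Sublow, 15.4 in 2 Low and 6.48 in 2 High libraries.

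**Figure D2:**
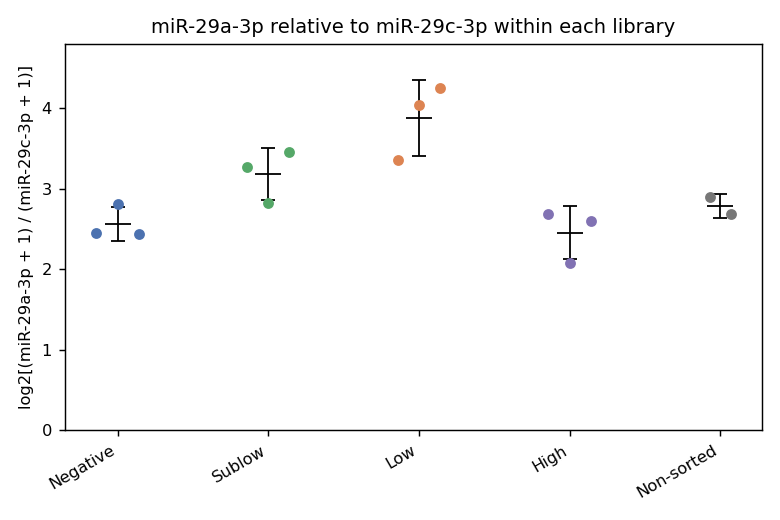
Log2 ratio of miR-29a-3p to miR-29c-3p, with 1 RPM added to each (vertical axis), in each library (points) by population, with the group mean and SD in black. The Low libraries lie at 3.35 to 4.25 and the High libraries at 2.07 to 2.69.

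The second ratio, of miR-29b-3p to miR-29a-3p, set the low-abundance member against its cluster neighbour. Its mean log2 value was −5.33 ± 0.23 in Negative, −5.82 ± 0.58 in Sublow, −5.55 ± 0.12 in Low and −6.67 ± 1.14 in High cells (SD, n = 3 each). The populations did not pass the threshold in the exact permutation test (p = 0.132). In High cells miR-29b-3p was listed at 0 in 2 of 3 libraries. The lowest values these 2 libraries list are 3.48 and 5.55 RPM, above miR-29b-3p in every Negative and Sublow library, so a level like that of Negative or Sublow cells would also be listed at 0 there. Without the High library in which it was listed, the exact permutation p was 0.00539, and the High values then consist of these zeros and the added 1 RPM alone. No direction is read from this ratio for High cells.

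Level differences were then tested one member at a time with limma on log2(RPM + 1), fitted to all entries with at least 10 RPM in at least 3 libraries. The filter left 588 entries, among them 3 of the 8 members: miR-29a-3p, miR-29c-3p and miR-29b-1-5p. Among the 4 sorted populations, 2 of these 3 differed, miR-29a-3p (F = 11.7, adjusted p = 0.00172) and miR-29b-1-5p (F = 4.32, adjusted p = 0.0403). Of all tested entries 72.3% did so, and a share of 2 in 3 lies near that background. miR-29c-3p did not pass (F = 2.08, adjusted p = 0.183). The call of miR-29b-1-5p was lost without any 1 of 8 libraries, which were all 3 Negative libraries, Sublow libraries 1 and 3, Low libraries 1 and 2 and High library 1 (adjusted p up to 0.13996). It was also lost with the replicate number in the model (adjusted p = 0.0588).

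In High against Low cells, endocrine-linked against stem-cell-linked populations, miR-29a-3p was lower, and it was the 1 member called. Of all tested entries 28.1% were called, 7.99% higher and 20.1% lower. It averaged 161.9 ± 5.54 RPM in High and 274.1 ± 36.2 RPM in Low libraries (SD, n = 3 each), a log2 fold change of −0.75 (SE 0.17, adjusted p = 0.00581). miR-29c-3p went the other way without passing the threshold, at 29.3 ± 7.53 RPM in High and 18.1 ± 5.72 RPM in Low libraries (log2 fold change 0.68, SE 0.30, adjusted p = 0.117). miR-29b-1-5p had a log2 fold change of −0.61 (SE 0.38, adjusted p = 0.270).

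In Negative against Low cells, 2 members were called, both lower, beside 66.0% of all tested entries, 16.5% higher and 49.5% lower. miR-29a-3p averaged 144.5 ± 25.4 RPM in Negative and 274.1 ± 36.2 RPM in Low libraries (log2 fold change −0.92, SE 0.17, adjusted p = 4.17e-04). miR-29b-1-5p averaged 6.54 ± 1.44 RPM in Negative and 19.2 ± 8.25 RPM in Low libraries (log2 fold change −1.35, SE 0.38, adjusted p = 0.00818). The values of these members did not overlap between the groups, and the share of all tested entries without overlap was not counted. miR-29c-3p had a log2 fold change of 0.39 (SE 0.30, adjusted p = 0.265).

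In Sublow against Low cells, progenitor-linked against stem-cell-linked populations, miR-29a-3p alone was called, and lower, beside 34.7% of all tested entries, 10.4% higher and 24.3% lower. It averaged 181.9 ± 31.1 RPM in Sublow and 274.1 ± 36.2 RPM in Low libraries (log2 fold change −0.60, SE 0.17, adjusted p = 0.0156). This call was lost without Sublow library 2 (adjusted p = 0.0587) or Low library 3 (adjusted p = 0.0628). miR-29c-3p differed by 0.10 (SE 0.30) and miR-29b-1-5p by −0.44 (SE 0.38) on the log2 scale, with adjusted p-values of 0.815 and 0.391.

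No member was called in the other 4 comparisons. Of all tested entries, 35.5% were called in Negative against Sublow (8.67% higher, 26.9% lower), 50.5% in High against Sublow (28.1% higher, 22.4% lower) and 66.3% in High against Negative cells (43.9% higher, 22.4% lower). In Negative against Non-sorted cells 3.74% were called, all lower. The log2 fold changes of miR-29a-3p were −0.33 in Negative against Sublow (95% interval −0.69 to 0.03), −0.15 in High against Sublow (−0.52 to 0.21), 0.18 in High against Negative (−0.19 to 0.54) and −0.19 in Negative against Non-sorted (−0.59 to 0.22). By limma's unadjusted p, 1 of these 12 member tests was under 0.05, that of miR-29b-1-5p in Negative against Sublow cells (log2 fold change −0.90, limma adjusted p = 0.0881).

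The deposited scale matters for each of these level differences. miR-215-5p, an abundant enterocyte miRNA, made up 34.0 ± 0.50% of the library in Negative, 24.3 ± 0.94% in Sublow, 4.85 ± 0.44% in Low, 4.04 ± 0.62% in High (SD, n = 3 each) and 34.4 ± 6.48% in Non-sorted cells (SD, n = 2). In a table of fixed total, a large share of 1 miRNA lowers the values of the others. Dividing each library by the median ratio of its entries moved the median log2 fold change of all entries by 0.84 in Negative against Low, 0.39 in Sublow against Low, 0.32 in High against Low and −0.52 in High against Negative. Whether the typical entry is in fact level between populations, as such a scaling assumes, was not tested.

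Rescaling moved the calls from one member to the other. miR-29a-3p was 172.5 to 225.0 in Negative, 142.3 to 208.3 in Sublow, 178.2 to 230.9 in Low and 138.6 to 158.0 in High libraries on the rescaled RPM scale, and its log2 fold change against Low was −0.05 in Negative (adjusted p = 0.836), −0.20 in Sublow (adjusted p = 0.495) and −0.42 in High (adjusted p = 0.107). miR-29c-3p was 23.5 to 40.6 in Negative, 15.0 to 20.6 in Sublow, 10.1 to 18.0 in Low and 22.1 to 34.5 in High libraries. Its log2 fold change against Low was 1.23 in Negative (adjusted p = 0.00591), 0.47 in Sublow (adjusted p = 0.312) and 0.98 in High (adjusted p = 0.0347). The lower miR-29a-3p of High, Sublow and Negative cells was therefore called on the deposited scale and not after rescaling, and the higher miR-29c-3p of High and Negative cells the reverse. Rescaling shifts both members alike within a library, so the gap between their fold changes is nearly the same on both scales.

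**Figure D3:**
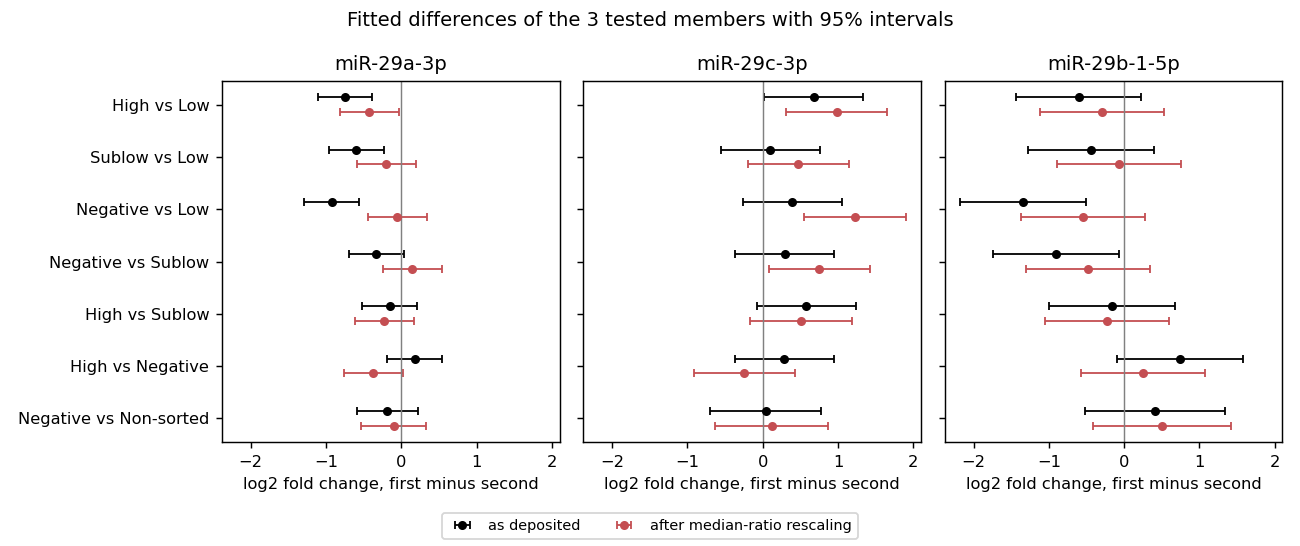
Log2 fold changes of the 3 tested members (horizontal axes, first group minus second) with 95% intervals from limma in 7 comparisons, as deposited (black) and after median-ratio rescaling (red). In Negative against Low, miR-29a-3p moves to −0.05 after rescaling, against −0.92 as deposited, and miR-29c-3p to 1.23, against 0.39.

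Shifted-start forms were listed under 27 rows of the members' names, of which 17 were above 0 in at least 1 library. The suffix was read as a shift of the first base, since the header does not define it, and a shifted start moves the seed. One such row passed the filter, the −1 form of miR-29a-3p, which is described here because of its level and was chosen after its values were seen. Under this reading the hairpin gives the following sequence, with the new seed in capitals.
miR-29a-3p, start −1: cUAGCACCaucugaaaucgguua

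The seed UAGCACC belongs to 0 of the 1679 mature names. The −1 form was 6.26, 13.4 and 18.3 RPM in Negative, 34.1, 12.2 and 21.1 RPM in Sublow, 58.5, 19.8 and 32.1 RPM in Low, 27.1, 25.4 and 38.6 RPM in High, and 16.7 and 15.1 RPM in Non-sorted libraries. As a share of all listed forms of miR-29a-3p it was 7.56 ± 2.62% in Negative, 10.1 ± 3.13% in Sublow, 11.0 ± 5.55% in Low, 15.0 ± 3.62% in High (SD, n = 3 each) and 8.63 ± 1.29% in Non-sorted cells (SD, n = 2). The High libraries, at 12.6 to 19.2%, lay above the Negative libraries, at 4.53 to 9.09%, and overlapped with the Sublow and Low libraries. The +1 form made up 1.72 to 4.84% with overlapping groups. All shifted forms together were 10.8 ± 3.88% in Negative, 14.3 ± 2.18% in Sublow, 17.2 ± 5.13% in Low, 19.9 ± 2.22% in High (SD, n = 3 each) and 11.7 ± 0.59% in Non-sorted cells (SD, n = 2). For miR-29c-3p they reached at most 8.43% in any library and were listed at 0 in all Low and Non-sorted libraries.

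**Figure D4:**
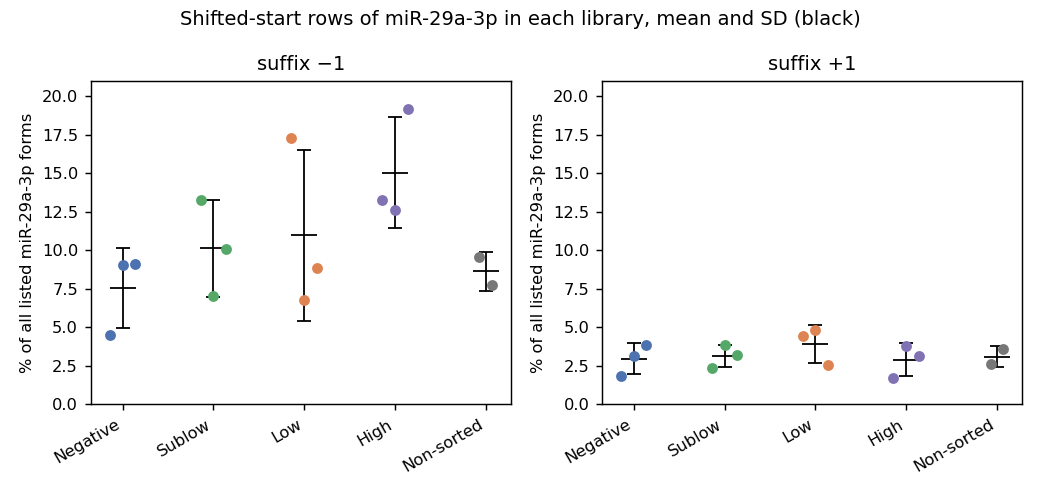
Share of the −1 and +1 rows among all listed forms of miR-29a-3p (vertical axes, percent) in each library (points), with the group mean and SD in black. The −1 share is 12.6 to 19.2% in High and 4.53 to 9.09% in Negative libraries, and the +1 share stays at 1.72 to 4.84% in all groups.

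Lower deposited values than in Low cells were common in the other families listed. In Negative against Low, 4 of 5 miR-30 members, which like miR-29 are broadly expressed, were lower and 0 higher, with a median log2 fold change of −0.89. All 8 let-7 members, repressors of growth genes such as Lin28a, were lower (median −1.13). Over all tested entries 49.5% were lower and 16.5% higher, with a median of −0.90. In High against Low, 1 of 5 miR-30 and 6 of 8 let-7 members were lower and 0 higher, with medians of −0.34 and −0.49. Over all tested entries 20.1% were lower and 7.99% higher there, with a median of −0.11. After rescaling, the High against Low counts became 0 lower and 1 higher for miR-30 and 2 lower and 2 higher for let-7.

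Other miRNAs with published targets in the DNA methylation machinery, 8 in number, included both higher and lower ones. In Negative against Low, 6 were lower and 1 higher (median −0.71), beside 49.5% lower and 16.5% higher of all tested entries (median −0.90). In High against Low, 4 were lower and 1 higher (median −0.34), beside 20.1% lower and 7.99% higher of all tested entries (median −0.11). miR-148a-3p, which targets Dnmt1, averaged 3049 RPM in High and 8441 RPM in Low libraries (log2 fold change −1.46, adjusted p = 5.15e-04). miR-152-3p, which has the same seed as miR-148a-3p, averaged 11.9 RPM in High and 135.0 RPM in Low libraries (log2 fold change −3.32, adjusted p = 2.01e-04). The higher one was miR-22-3p, with a published target in Tet2, at 1834 RPM in High and 1053 RPM in Low libraries (log2 fold change 0.81, adjusted p = 0.00148). After rescaling, the Negative against Low counts were 1 higher and 1 lower for miR-30, 1 higher and 4 lower for let-7, and 2 higher and 3 lower for this list, beside 136 higher and 131 lower of all 588 entries. In High against Low they were 2 higher and 3 lower for this list, beside 81 higher and 70 lower of all entries.

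The 5 entries whose levels followed miR-29a-3p most closely over the 14 libraries were miR-222-3p (Pearson r = 0.87), miR-92a-1-3p (0.86), miR-218-1-5p (0.86), miR-218-2-5p (0.84) and miR-130b-5p (0.84), among 272 candidates. These are correlations of log2(RPM + 1), and the libraries share the population structure and the miR-215-5p share. After rescaling the same 5 correlations were 0.30 to 0.54. Within the family, r over the 14 libraries was 0.58 between miR-29a-3p and miR-29b-1-5p, which come from one cluster, and −0.33 between miR-29a-3p and miR-29c-3p. After rescaling these were −0.23 and 0.04.

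Among markers of other cells, the mesenchymal and haematopoietic sums reached their highest values in Low libraries. Whether they followed miR-29a-3p library by library was not tested. The summed level of 5 listed mesenchymal and smooth muscle miRNAs, cells known to be rich in miR-29, was 19.4 to 34.5 RPM in Negative, 45.9 to 71.2 RPM in Sublow, 33.3 to 95.7 RPM in Low, 31.5 to 53.5 RPM in High and 35.7 to 57.0 RPM in Non-sorted libraries. Of these, miR-145-5p was listed at 0 in all libraries. In Low libraries miR-143-3p was 52.95, 52.03 and 9.66 RPM, lowest in the library with the most miR-29a-3p (315.2 RPM). The sum of 5 haematopoietic miRNAs was 6.51 to 102.9 RPM in Negative, 11.7 to 160.6 RPM in Sublow, 42.4 to 213.0 RPM in Low, 11.1 to 67.3 RPM in High and 10.04 to 11.3 RPM in Non-sorted libraries, and miR-142-3p was listed at 0 throughout. miR-155-5p was above 0 in every library. It was 13.5, 6.51 and 46.68 RPM in Negative, 69.82, 11.71 and 79.64 RPM in Sublow, and 103.14, 42.37 and 86.81 RPM in Low libraries. In High libraries it was 31.84, 10.8 and 11.1 RPM, and in Non-sorted libraries 11.33 and 6.97 RPM. In Negative and High its highest value fell in the library with the most miR-29a-3p, and in the other groups it did not. Of this list, miR-150-5p was 0, 0 and 39.37 RPM in Negative and 74.21, 0 and 39.15 RPM in Low libraries. These zeros fell in libraries that list miR-295-3p. In High libraries it was 22.57, 0 and 0 RPM, and only the second of these lists miR-295-3p. The erythroid markers miR-451 and miR-144-3p were listed at 0 in all libraries, and the other arm, miR-144-5p, was above 0 in 1 Sublow library, at 1.67 RPM. The endothelial miR-126-3p was listed at 0 in all but 2 High libraries. Its other arm, miR-126-5p, was 0.81 to 5.09 RPM in Negative, 0.98 to 5.96 RPM in Sublow, 0 to 12.6 RPM in Low, 8.42 to 13.2 RPM in High and 3.63 to 6.39 RPM in Non-sorted libraries. The part of these cells in the miR-29 levels was not tested, and in sorted bulk samples fewer cells of a type and less RNA per cell cannot be told apart. Among the epithelial markers, all 8 were listed in every group, and they summed to 558463 to 559871 RPM in Negative, 424333 to 437263 RPM in Sublow, 215198 to 244726 RPM in Low, 197246 to 230584 RPM in High and 490391 to 582433 RPM in Non-sorted libraries. The 3 endocrine markers summed to 2551 to 3634 RPM in Negative, 24003 to 25588 RPM in Sublow, 82016 to 106946 RPM in Low, 151003 to 172443 RPM in High and 13212 to 23259 RPM in Non-sorted libraries.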

How the data were processed

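The authors deposited one table of RPM values, reads per 1000000 over the miRNA entries of each of the 14 libraries, made with a TriLink CleanTag kit per the labels. Build mm9 is named in the submitters' processing notes. The aligner and counter were not given in the sources used here. RefSeq sequences and coordinates are of GRCm38.p6 and were not converted. Values were used as log2(RPM + 1), which understates fold changes of low entries. Depth was estimated from the steps between low values, with the smallest listed value of a library assumed to hold about 10 reads. Of the low values, 71.2 to 84.8% were whole reads within 0.1 read, too few for a test on counts. Entries with at least 10 RPM in at least 3 libraries were fitted in one model of 5 groups with limma 3.58.1 (R 4.3.3, moderated tests with trend, two-sided, Benjamini-Hochberg over 588 entries, threshold 0.05). Ratios were tested by exact permutation over libraries (Python 3.11.15). Both procedures were tested on simulated data. All members were named, with the 5 entries of highest r with the most abundant member, and 3 further lists. The members and lists were chosen with earlier results of these data known. Alternatives were other pseudocounts, filters and scalings, a lane term, a replicate block and each library left out. The lane term used the codes in the column names, with L000 as a level of its own, and was fitted for levels and not for the ratios. The miR-295-3p split was a further alternative, chosen after seeing the data.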

Additional observations from a re-analysis of the deposited data

How the results depend on the processing

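The miR-29a-3p to miR-29c-3p ratio differed among the sorted populations under every alternative run (exact or permutation p = 9.09e-04 to 0.0156), including the replicate block (p = 0.0156) and each library left out (9.74e-04 to 0.0128). The miR-29b-3p to miR-29a-3p ratio had an exact permutation p of 0.00539 to 0.399 over left-out libraries. Replicate numbers were not taken as pairs in the main tests, which therefore do not account for what same-numbered libraries share. The column names give libraries of one number a shared code, whose meaning the labels do not state. Same-numbered libraries correlated at −0.35 to 0.78 in their deviations (median 0.56), over 0.1 in 14 of 18 pairs. Libraries of different numbers correlated at −0.84 to 0.71 (median −0.41), over 0.1 in 11 of 36 pairs. Of 12 libraries, 11 had a higher mean correlation with their own number, and 9 had their highest single correlation with a library of that number. Members called among the 4 populations (F test) numbered 2 as reported, 1 with a pseudocount of 0.1, no filter, rescaling, the lane term, the replicate block (miR-29b-1-5p lost) or the 7 libraries without miR-295-3p, 0 with quantile normalization, and 1 to 2 over left-out libraries. In High against Low the count was 0 with quantile normalization. In Sublow against Low it was 0 with no filter, either rescaling, the lane term or the 7 libraries, and 0 to 1 over left-out libraries. In Negative against Low it was 1 with either rescaling (miR-29c-3p, higher) and 1 with the lane term or the 7 libraries (miR-29a-3p, lower). The cause of these changes was not tested.

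Signs of uncalled differences also turned. With rescaling, miR-29a-3p was 0.15 in Negative against Sublow and −0.37 in High against Negative, where miR-29c-3p was −0.25 (also −0.25 with quantile normalization, and miR-29b-1-5p −0.0038). With the lane term, miR-29c-3p was −0.29 in Sublow against Low and −0.035 in Negative against Non-sorted, miR-29b-1-5p 0.096 in High against Sublow and miR-29a-3p −0.16 in High against Negative. In the 7 libraries, miR-29c-3p was −0.11 in Sublow against Low, and in High against Negative miR-29a-3p was −0.11 and miR-29c-3p −0.32. Over left-out libraries, miR-29c-3p ran over −0.051 to 0.33 in Sublow against Low and −0.17 to 0.23 in Negative against Non-sorted, where leaving out a Non-sorted library leaves 1, assumed to vary like the other groups. By the depth estimate, members under about 10 reads are listed at 0. With no filter, the pairwise tests of miR-29a-5p, miR-29b-3p, miR-29b-2-5p and miR-29c-5p did not pass (lowest limma adjusted p = 0.126, miR-29b-3p in High against Low, log2 fold change −1.86 with 2 High values at 0).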
